A study of Mus musculus with 26 samples.

Results

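Cirbp and Rbm3, which encode the cold-inducible RNA-binding proteins, Noct, which encodes nocturnin, and the related genes Srsf5 and Tob1 are described here in mouse microglia after repeated social defeat stress (R-SDS). The 5 genes were matched by the transcript accession of their probes and carry 7 of the 55681 probes on the array; all 5 passed the filter on dim probes, among 24735 genes tested. Cirbp and Noct were chosen by their difference between stressed and naive samples averaged over genotypes and regions, so every stress value of these genes is a description with no test. Rbm3, Srsf5 and Tob1 were taken for their relation in function, and their stress values were tested.

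Cirbp and Rbm3 are small glycine-rich proteins with 1 RNA recognition motif. Their transcripts rise when cells are mildly cooled and fall with warming, and the proteins bind mRNAs and affect their stability, splicing and translation. Nocturnin belongs to the family of Ccr4-like deadenylases, is transcribed with a daily rhythm in many tissues and is induced acutely by serum and other stimuli. Its catalytic domain has since been shown to act on NADP(H), so its role on poly(A) tails is debated. Srsf5 is an SR protein, a class of splicing factors with an arginine- and serine-rich tail. Tob1 is an antiproliferative adaptor that brings the Ccr4-Not deadenylase complex to mRNAs.

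The study compared microglia of the medial prefrontal cortex (mPFC) and the nucleus accumbens (NAc) in mice of 2 genotypes. All mice were C57BL/6 and carried CX3CR1EGFP/+, that is, EGFP in 1 copy of the fractalkine receptor gene; the labels call mice with this allele alone WT, and those that also carry TLR-DKO by that name, without spelling it out. Mice met repeated social defeat or a transfer between cages (naive) and were perfused 1.5 hours after the last session; the labels call stressed WT mice susceptible and stressed TLR-DKO mice resilient, and ages are not given in the sources used here. EGFP-positive cells were sorted from tissue punches, and each sample pooled 3 to 6 mice. There were 26 arrays in 8 groups of 3, except for 4 arrays each of TLR-DKO mPFC naive and TLR-DKO NAc R-SDS. The labels do not say which sample belongs to which of the study's experiments, so p-values measure the spread between these pools.

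A level here is log2 of the spot signal minus the array's 75th percentile. It is relative to the array and to the probe, so levels are compared between arrays and not between genes. The 75th percentile ran from 80.7 to 340.5 signal units, and up to 71.0% of spots on an array were well above background. All 12 microglia markers examined, among them Cx3cr1, P2ry12 and Tmem119, were well above background on all 26 arrays. Their summed linear level was 1159 to 1891 on naive and 1179 to 3271 on R-SDS arrays. In the R-SDS minus naive difference, 12 of 12 lay below 0 in TLR-DKO mPFC and 12 of 12 in TLR-DKO NAc. In WT NAc 10 of 12 lay below 0, and in WT mPFC 10 of 12 lay above 0. Of all genes, 46.0%, 48.1%, 55.0% and 62.3% lay above 0 there, in that order. The marker medians were -0.23, -0.21, -0.087 and 0.29, and 0 markers passed the test. Neuron markers, of which 5 of 12 were above background on every array, summed to 33.2 to 101 on naive and 30.8 to 128 on R-SDS arrays. Astrocyte markers, with 5 of 11 above background on every array, summed to 13.1 to 36.5 on naive and 18.7 to 75.2 on R-SDS arrays. Oligodendrocyte markers (7 of 11 on every array) summed to 14.3 to 45.2, endothelial and mural markers (2 of 10) to 5.43 to 20.0, and T, NK and B cell markers (3 of 10) to 10.6 to 24.4. Perivascular macrophage markers, with 1 of 10 on every array, spread from 2.61 to 107. Their group means were 17.8 to 59.5 in mPFC and 5.94 to 10.2 in NAc. Of 11 monocyte and neutrophil markers, 10 had a probe and 3 were above background on every array, and they summed to 237 to 417. S100a9, Retnlg and Ms4a1, markers of neutrophils and B cells, were above background on no array. A sum adds levels of different probes, so sums are compared between arrays and not between lists. What part other cells had in the results was not tested, and in pooled samples a change in RNA per cell and a change in the mix of cells cannot be told apart. Tlr2, a Toll-like receptor gene, was well above background on all 12 WT arrays and on 0 of 14 TLR-DKO arrays. WT mPFC R-SDS replicate 3 stood apart from the rest: it was the dimmest array, its mean correlation with the other arrays was 0.79, and its estimated array weight was 0.25. TLR-DKO mPFC naive replicate 1 had the next lowest weight, 0.47, with a mean correlation of 0.83. Printed estimates of the 5 genes, each by its brightest probe, that leaving out 1 of these arrays moved by over 1.5 times are given without it too.

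The upstream sequences of Cirbp and Noct are shown because these genes moved in opposite directions. They are the 250 bases before the RefSeq start in build GRCm38.p6, plus strand, 5′ to 3′; Cirbp has 2 listed starts and the sequence is of the first. Capitals mark matches on either strand to the GC box (GGGCGG) and the CCAAT box (CCAAT).
Cirbp, chr10:80167589-80167838: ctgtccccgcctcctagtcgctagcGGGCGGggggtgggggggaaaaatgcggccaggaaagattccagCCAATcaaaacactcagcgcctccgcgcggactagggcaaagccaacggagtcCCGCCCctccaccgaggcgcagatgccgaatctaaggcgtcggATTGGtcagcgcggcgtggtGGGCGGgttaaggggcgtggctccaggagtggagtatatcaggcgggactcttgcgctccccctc
Noct, chr3:51224197-51224446: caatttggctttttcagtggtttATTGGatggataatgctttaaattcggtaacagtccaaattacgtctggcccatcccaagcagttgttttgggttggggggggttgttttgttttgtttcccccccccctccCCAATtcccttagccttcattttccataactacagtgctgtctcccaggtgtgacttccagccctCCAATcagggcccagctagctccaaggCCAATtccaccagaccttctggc
The Cirbp window held 3 GC boxes and 2 CCAAT boxes, and the Noct window held 0 GC boxes and 4 CCAAT boxes. Over the 32851 RefSeq promoter windows of this length, 32.7% held a GC box and 33.8% a CCAAT box, so both motifs are common. The heat shock element (GAANNTTC, in 6.69% of windows), the E-box (CACGTG, 6.02%), the glucocorticoid receptor core motif (TGTTCT, 16.1%) and the core of the cAMP response element (TGACG, 17.8%) had no match in either window; these letters may lie elsewhere. These windows are those of the first start listed for each gene. The window of the second Cirbp start held 4 GC boxes, 0 CCAAT boxes and 1 match to the cAMP response element core, 60 bases before that start. RefSeq windows were matched for 4 of the 5 genes.

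Cirbp was lower after stress in 3 of the 4 combinations of genotype and region, and not in WT mPFC. Its single probe, A_51_P272106, was well above background on all 26 arrays. In WT mPFC its levels were 2.18, 2.82 and 2.03 on naive arrays and 2.24, 2.54 and 3.24 on R-SDS arrays. These groups overlapped, and the highest value was that of the array that stands apart. In TLR-DKO mPFC the levels were 3.93, 2.79, 3.35 and 2.92 on naive arrays and 1.57, 1.86 and 0.35 on R-SDS arrays. Every stressed array there lay below every naive one, and the naive group had the highest mean of the 8. The value of 3.93 came from naive replicate 1, the array with the second lowest weight. In WT NAc the levels were 2.98, 2.32 and 2.62 on naive arrays and 0.92, 1.07 and 0.14 on R-SDS arrays, again without overlap. In TLR-DKO NAc they were 2.17, 2.46 and 2.17 on naive arrays and 1.07, 1.07, 1.57 and 1.44 on R-SDS arrays, a smaller but complete separation.

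The 4 naive groups had Cirbp means between 2.27 ± 0.17 (SD, n = 3, TLR-DKO NAc) and 3.25 ± 0.51 (SD, n = 4, TLR-DKO mPFC). Without its replicate 1 the TLR-DKO mPFC naive mean was 3.02 ± 0.29 (SD, n = 3), still the highest of the 8. The stressed WT mPFC group, at 2.67 ± 0.51 (SD, n = 3), lay within that range. The other stressed groups had means of 1.29 ± 0.26 (SD, n = 4, TLR-DKO NAc), 1.26 ± 0.80 (SD, n = 3, TLR-DKO mPFC) and 0.71 ± 0.50 (SD, n = 3, WT NAc). In the order of the 8 means, neighbours differed by less than the larger of their SDs, except at 2 steps: from TLR-DKO NAc R-SDS up to TLR-DKO NAc naive, and from WT mPFC R-SDS up to TLR-DKO mPFC naive. Without TLR-DKO mPFC naive replicate 1, the last of these steps was also smaller than the larger SD. Over conditions, the 13 naive arrays ran from 2.03 to 3.93 with a median of 2.62, and the 13 R-SDS arrays from 0.14 to 3.24 with a median of 1.44.

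**Figure D1:**
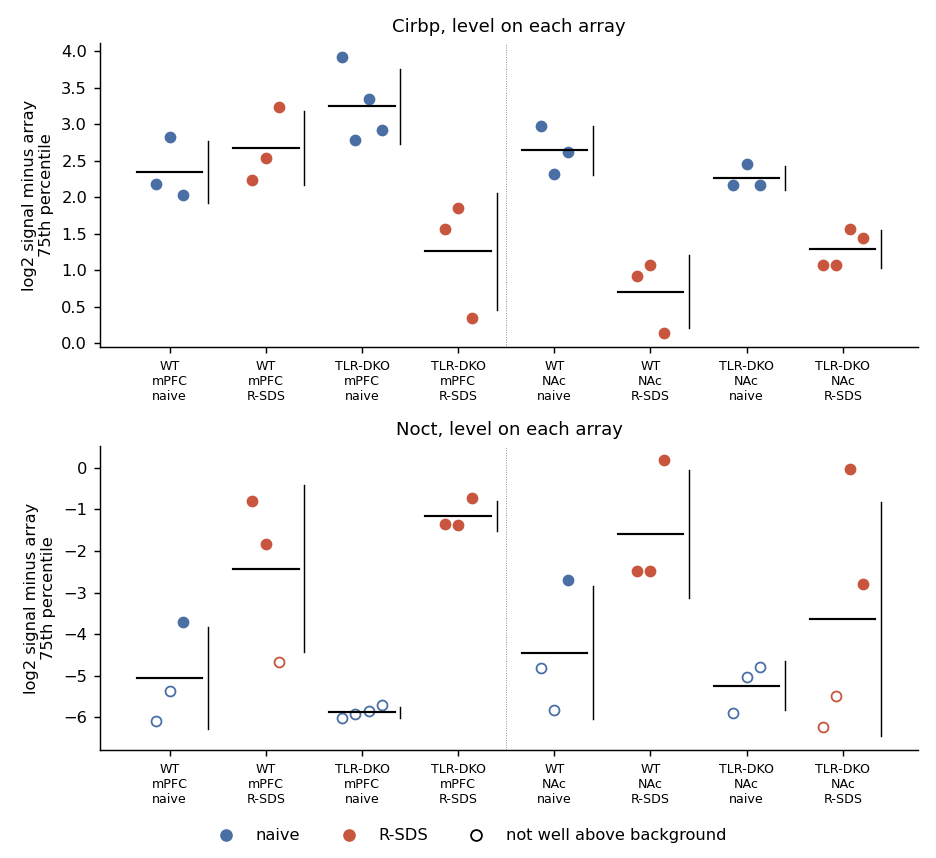
Level of Cirbp (top) and Noct (bottom) on each array, as log2 signal minus the array's 75th percentile, in the 8 groups. Each point is 1 array, open where the probe was not well above background; horizontal bars are group means and vertical bars the mean ± SD. Cirbp was lower on every R-SDS array than on every naive array in 3 of 4 combinations: TLR-DKO mPFC, WT NAc and TLR-DKO NAc. Non-overlap there, in either direction, was met by 6.25%, 8.17% and 4.22% of all genes. Noct was well above background on 10 of 13 R-SDS and 2 of 13 naive arrays, and passed the filter only through stressed groups. Both genes were chosen by their stress difference, so these counts are a description.

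As differences on the log2 scale, R-SDS minus naive for Cirbp was -1.99 ± 0.38 (SE) in TLR-DKO mPFC, -1.93 ± 0.40 in WT NAc and -0.98 ± 0.38 in TLR-DKO NAc. The corresponding levels were 3.97-fold, 3.82-fold and 1.97-fold lower in the stressed groups. In WT mPFC the difference was 0.33 ± 0.40, and 0.046 without the array that stands apart. The average of the 4 was -1.14 ± 0.20, a 2.21-fold lower level, and ranged from -1.35 to -1.03 over 42 alternative settings. These values chose the gene. In TLR-DKO mPFC the difference was -1.76 without naive replicate 1. Split by scan day, the same arrays gave differences of -2.21 and -2.67 in TLR-DKO mPFC and -1.99 and -2.33 in WT NAc. TLR-DKO NAc gave -1.09 and -0.81. As these arrays chose the gene, the split is a description and no separate check. Each of these values had 1 array in the naive or the R-SDS group, except the second day of TLR-DKO NAc, with 2 in each. The only naive TLR-DKO mPFC array of the first day was replicate 1. The WT mPFC difference was -0.11 on the first scan day and 1.21 on the second, which had 1 array a group. Some marker sums of other cells also separated in TLR-DKO mPFC and in WT NAc, but not in TLR-DKO NAc. Perivascular macrophage markers in TLR-DKO mPFC summed to 22.7 to 107 on naive and 16.7 to 19.7 on R-SDS arrays. There 9 of 10 were below 0 in the stress difference, while 46.0% of all genes were above 0. Astrocyte markers in WT NAc summed to 13.1 to 15.6 on naive and 20.5 to 41.2 on R-SDS arrays. There 9 of 10 were above 0, against 55.0% of all genes. No marker of these 2 lists passed the test in these groups (smallest limma adjusted p 0.97 and 0.71). What part these cells had in the Cirbp and Noct results was not tested.

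Non-overlap by itself was common: over all genes, naive and R-SDS arrays did not overlap for 8.1% of genes in WT mPFC, 6.25% in TLR-DKO mPFC, 8.17% in WT NAc and 4.22% in TLR-DKO NAc, in either direction. In 3 or more of the 4 combinations, 10 of 24735 genes were lower without overlap, Cirbp among them, and 10 were higher. Cirbp was chosen by the stress values of these same arrays, so its place in that count is a description and nothing is read from it. For the average stress difference itself, limma called 0% of genes at an adjusted p under 0.05, with 1351 genes at an unadjusted p under 0.05; as the rule used this contrast, nothing is read from it for Cirbp or Noct.

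The contrasts that the choice of Cirbp did not use asked whether the stress difference depended on genotype or region. Stressed WT mice were all labelled susceptible and stressed TLR-DKO mice resilient. Genotype and this label thus cannot be told apart in the stress by genotype contrasts of any gene here. In mPFC, where Cirbp was lower after stress in TLR-DKO and not in WT, the stress difference in TLR-DKO minus that in WT was -2.32 ± 0.55 (SE), with a 95% interval of -3.47 to -1.17. Its p was 0.81 in limma after Benjamini-Hochberg adjustment over all genes, and it did not pass the threshold. No gene did in this contrast (0% called, 1507 genes at an unadjusted p under 0.05). Over 45 alternative settings the value ran from -3.88 to -1.74 and the adjusted p from 0.13 to 1.00, and it was -2.04 without the array that stands apart and -2.09 without TLR-DKO mPFC naive replicate 1 (adjusted p 0.75). In NAc the same contrast was 0.96 ± 0.55 (adjusted p 1.00, interval -0.19 to 2.11), again with 0% of genes called and 623 at an unadjusted p under 0.05. Averaged over both regions it was -0.68 ± 0.39 (adjusted p 0.93), in a contrast with 0% called and 1193 at an unadjusted p under 0.05.

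The difference between the regional genotype contrasts of Cirbp, added after its values had been seen, was 3.27 ± 0.78 (adjusted p 1.00; 0% of genes called, 834 at an unadjusted p under 0.05). The stress difference in NAc minus that in mPFC was -0.62 ± 0.39 (adjusted p 1.00), where limma called 0.00404% of genes, which is 1 gene. Averaged over stress and genotype, the NAc minus mPFC difference of Cirbp was -0.66 ± 0.20 on the log2 scale, a 1.57-fold lower level in NAc. That regional contrast had an adjusted p of 0.12, with a range of 0.055 to 0.83 over the alternatives, and called 0.898% of genes. No slide held both regions, so region and slide cannot be told apart in it. Perivascular macrophage markers (10 of 10) and neuron markers (7 of 7) lay below 0 there, while 44.7% of all genes lay above 0. The other marker lists had genes on both sides. What part these cells had in the regional difference of Cirbp was not tested. The 13 mPFC arrays had a median Cirbp level of 2.54 and the 13 NAc arrays of 1.57, with wide overlap. Genotype averaged over the other factors made a difference of -0.076 ± 0.20 (adjusted p 0.94), in a contrast that called 0.0202% of genes. That value was -0.0053 without WT mPFC R-SDS replicate 3 and -0.13 without TLR-DKO mPFC naive replicate 1.

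**Figure D2:**
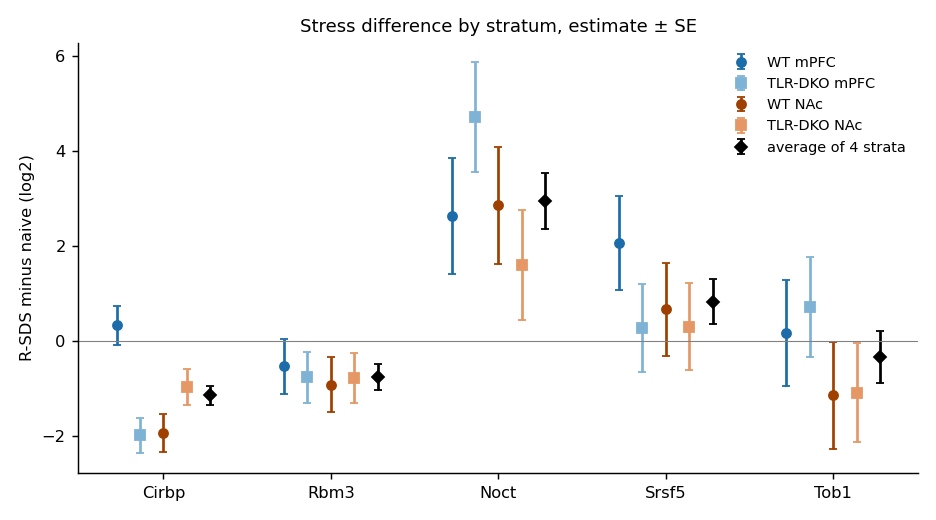
Stress difference (R-SDS minus naive, log2 scale) of the 5 genes in each combination of genotype and region and as their average, with the SE of the limma fit. Cirbp lies below 0 in all combinations except WT mPFC, Noct above 0 in all 4, and the average for the brightest Rbm3 probe is -0.75.

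Rbm3, the close relative of Cirbp, was measured by 3 probes that did not give the same picture. The brightest, A_55_P2117525, stands for the gene in the fit. In WT mPFC it read 4.31, 5.97 and 4.69 on naive arrays and 4.68, 4.85 and 3.84 on R-SDS arrays. In TLR-DKO mPFC it read 5.78, 5.23, 5.41 and 3.98 on naive arrays and 3.49, 5.16 and 4.34 on R-SDS arrays. The stressed mean was the lower one in both, with overlap. In WT NAc the levels were 4.86, 4.89 and 4.38 on naive arrays and 3.53, 4.30 and 3.54 on R-SDS arrays. In TLR-DKO NAc they were 3.83, 5.04 and 5.61 on naive arrays and 3.09, 3.98, 4.49 and 4.62 on R-SDS arrays. Only the WT NAc groups did not overlap, which 8.17% of all genes also met.

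For this probe the stress difference was -0.54 ± 0.57 (SE) in WT mPFC, -0.77 ± 0.53 in TLR-DKO mPFC, -0.92 ± 0.57 in WT NAc and -0.78 ± 0.53 in TLR-DKO NAc. All 4 estimates lay below 0, and their average of -0.75 ± 0.28, a 1.68-fold lower level, did not pass the test (limma adjusted p 0.86). The WT mPFC estimate was -0.23 without the array that stands apart. Fitted among all 34729 probes tested, the other Rbm3 probes had average stress differences of 0.064 ± 0.22 (A_51_P262340, adjusted p 0.99) and 0.24 ± 0.19 (A_52_P280360, adjusted p 0.98). The value of A_51_P262340 was -0.0060 without the array that stands apart. With the 3 probes averaged, the gene's value was -0.15. The files hold different transcript accessions for the 3 probes, and whether they detect different transcripts was not tested.

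A_51_P262340 had group means of 3.36 ± 0.73 (SD, n = 3) in WT mPFC naive and 3.68 ± 0.76 (SD, n = 3) in WT mPFC R-SDS, and its means in the other 6 groups lay between 2.51 and 2.90. Naive and stressed arrays overlapped in every combination for this probe. A_52_P280360 separated in 1 combination, in the opposite direction to the brightest probe: in TLR-DKO mPFC it read 3.06, 2.53, 2.81 and 2.87 on naive arrays and 3.69, 3.55 and 3.20 on R-SDS arrays. Non-overlap in either direction was met by 6.25% of all genes in TLR-DKO mPFC. The difference there was 0.66 ± 0.36 (SE, limma adjusted p 0.92), and the probe's other stress differences were between 0.056 and 0.13. The lowest of these, in WT mPFC, was 0.21 without the array that stands apart. The estimated average stress difference of Rbm3 thus differed by probe in sign, and no probe passed the test.

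**Figure D3:**
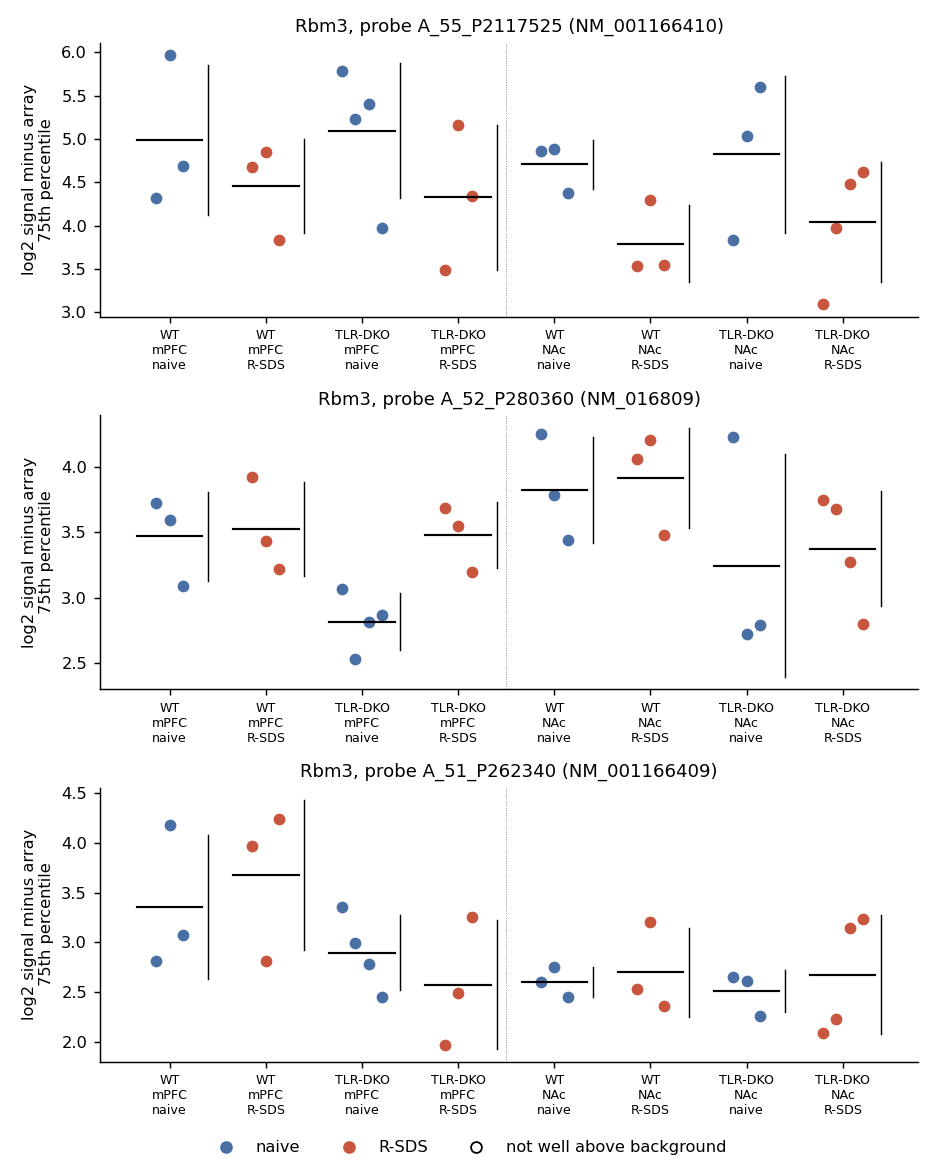
Levels of the 3 Rbm3 probes on each array (log2 signal minus the array's 75th percentile), brightest probe at the top, with group means and SD as bars. In TLR-DKO mPFC the brightest probe has a lower mean on stressed than on naive arrays (4.33 against 5.10), while A_52_P280360 lies higher on every stressed array. Non-overlap there, in either direction, was met by 6.25% of all genes.

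No genotype or interaction contrast passed the test for Rbm3. The genotype difference of its brightest probe was 0.088 ± 0.28 (adjusted p 0.96), the regional difference -0.38 ± 0.28 (adjusted p 0.54), and the stress by genotype contrast -0.047 ± 0.55 (adjusted p 1.00). Without WT mPFC R-SDS replicate 3 the genotype difference was 0.011 and the stress by genotype contrast -0.20. Without TLR-DKO mPFC naive replicate 1 they were 0.031 and 0.067. The other probes had genotype differences of -0.42 ± 0.22 (A_51_P262340, adjusted p 0.66) and -0.45 ± 0.19 (A_52_P280360, adjusted p 0.56), TLR-DKO below WT.

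Noct was mostly undetected on naive and mostly detected on R-SDS arrays. It passed the filter on dim probes only through stressed groups, TLR-DKO mPFC and WT NAc, and was chosen by its stress difference. The counts of arrays above background are thus a description. Its probe, A_55_P1968723, was well above background on 2 of 13 naive arrays and on 10 of 13 R-SDS arrays. In TLR-DKO mPFC the levels were -6.02, -5.92, -5.86 and -5.70 on naive arrays, none above background, and -1.34, -1.38 and -0.74 on R-SDS arrays, all above it. This was the clearest separation of the 4, with a small spread in both groups. In WT NAc the levels were -4.81, -5.82 and -2.70 on naive arrays, only the last above background, and -2.47, -2.48 and 0.20 on R-SDS arrays, all above it. The groups did not overlap, but the highest naive array lay just below the lowest stressed ones.

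In WT mPFC Noct read -6.09, -5.37 and -3.71 on naive arrays, the last above background, and -0.79, -1.82 and -4.67 on R-SDS arrays. The groups overlapped through the stressed array that stands apart, which was not above background. In TLR-DKO NAc the levels were -5.91, -5.02 and -4.79 on naive arrays and -6.23, -5.49, -0.031 and -2.79 on R-SDS arrays. Stressed arrays of this group fell at both ends: 2 were not above background and 2 were, among them the second brightest Noct signal of all arrays. The pair that was not above background was scanned on the first day and the other pair on the second. Scan day and any difference between the mice of these pools cannot be told apart within the group.

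The stress differences of Noct were 4.72 ± 1.15 (SE) in TLR-DKO mPFC, 2.86 ± 1.23 in WT NAc, 2.63 ± 1.23 in WT mPFC and 1.60 ± 1.15 in TLR-DKO NAc, on the log2 scale. Their average was 2.95 ± 0.60. The WT mPFC difference was 3.76 and the average 3.23 without the array that stands apart. The perivascular macrophage sums in TLR-DKO mPFC and the astrocyte sums in WT NAc, given with Cirbp, separated in the same groups. Where a signal is not above background it is only a bound. A bound was taken in the main processing against the higher of the probe's own signal and the array's lowest signal above background. By it, Noct was at least 5.67-fold higher after stress in TLR-DKO mPFC. In WT mPFC and WT NAc, 1 of 3 naive arrays measured it, and no bound is given for TLR-DKO NAc, where the stressed mean lay under the background limit. The fitted size depends on how background is treated: with a normexp correction the average was 0.90. The difference was then 1.39 in TLR-DKO mPFC, 0.99 in WT mPFC and 0.83 in WT NAc. The bound of 5.67-fold thus does not hold under that correction. Within a scan day the difference was 4.43 and -0.96 in WT mPFC, 4.66 and 5.09 in TLR-DKO mPFC, 2.34 and 4.46 in WT NAc, and 0.044 and 3.49 in TLR-DKO NAc, first and second day in that order.

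In the contrasts that did not choose it, Noct gave wide intervals and no call. The stress difference in TLR-DKO minus that in WT was 0.42 ± 1.19 (limma adjusted p 0.98), with 2.09 ± 1.69 in mPFC (adjusted p 0.84) and -1.26 ± 1.69 in NAc (adjusted p 1.00). The 95% interval of the averaged contrast ran from -2.07 to 2.90, so a difference in either direction of several fold was not detectable here. Genotype gave -0.60 ± 0.60 (adjusted p 0.83) and region -0.097 ± 0.60 (adjusted p 0.96). Without the array that stands apart, stress by genotype was -0.15 averaged over regions and 0.97 in mPFC, and region was -0.38.

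Srsf5, whose transcript is among those that shift with temperature in mouse cells, was read by probe A_55_P2157872 and was above background on all 26 arrays. In WT mPFC it read 2.63, 0.31 and 1.77 on naive arrays and 1.96, 2.48 and 6.47 on R-SDS arrays. The value of 6.47, from the array that stands apart, was the highest of all arrays, and the next highest was 4.06. In TLR-DKO mPFC the levels were 0.64, 3.81, 3.20 and 2.38 on naive arrays and 1.93, 2.89 and 3.53 on R-SDS arrays. In WT NAc they were 0.62, 2.68 and 2.87 on naive arrays and 2.14, 2.82 and 3.21 on R-SDS arrays. In TLR-DKO NAc they were 2.19, 3.13 and 2.14 on naive arrays and 2.57, 1.73, 2.79 and 4.06 on R-SDS arrays. Naive and stressed arrays overlapped in all 4 combinations.

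The stress difference of Srsf5 averaged 0.83 ± 0.48 (SE) on the log2 scale, a 1.77-fold higher level, and did not pass the test (adjusted p 0.94). It was 2.06 ± 0.99 in WT mPFC and 0.65 there without the array that stands apart, which took the average to 0.47. In the other combinations it was 0.27 ± 0.92 (TLR-DKO mPFC), 0.66 ± 0.99 (WT NAc) and 0.30 ± 0.92 (TLR-DKO NAc). Genotype (0.14 ± 0.48, adjusted p 0.96), region (-0.11 ± 0.48, adjusted p 0.94) and stress by genotype (-1.08 ± 0.95, adjusted p 0.93) gave no call. Without the array that stands apart these were 0.50, 0.24 and -0.37. Without TLR-DKO mPFC naive replicate 1, the stress difference of Srsf5 in TLR-DKO mPFC was -0.35, genotype 0.30 and region -0.27.

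Tob1, read by probe A_51_P293339, was above background on 21 of 26 arrays and varied widely between arrays of a group. In WT mPFC it read -1.67, -0.49 and -3.06 on naive arrays and -3.20, -2.67 and 1.15 on R-SDS arrays, the last again from the array that stands apart. In TLR-DKO mPFC it read -5.29, -0.60, -4.06 and -5.55 on naive arrays, with only the second above background, and -3.67, -3.68 and -2.12 on R-SDS arrays. In WT NAc it read -2.47, -0.81 and -1.67 on naive arrays and -2.54, -3.94 and -1.91 on R-SDS arrays. In TLR-DKO NAc it read -0.67, -2.17 and -1.68 on naive arrays and -2.53, -3.35, -2.56 and -1.93 on R-SDS arrays. Stressed arrays overlapped naive ones in all 4 combinations.

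**Figure D4:**
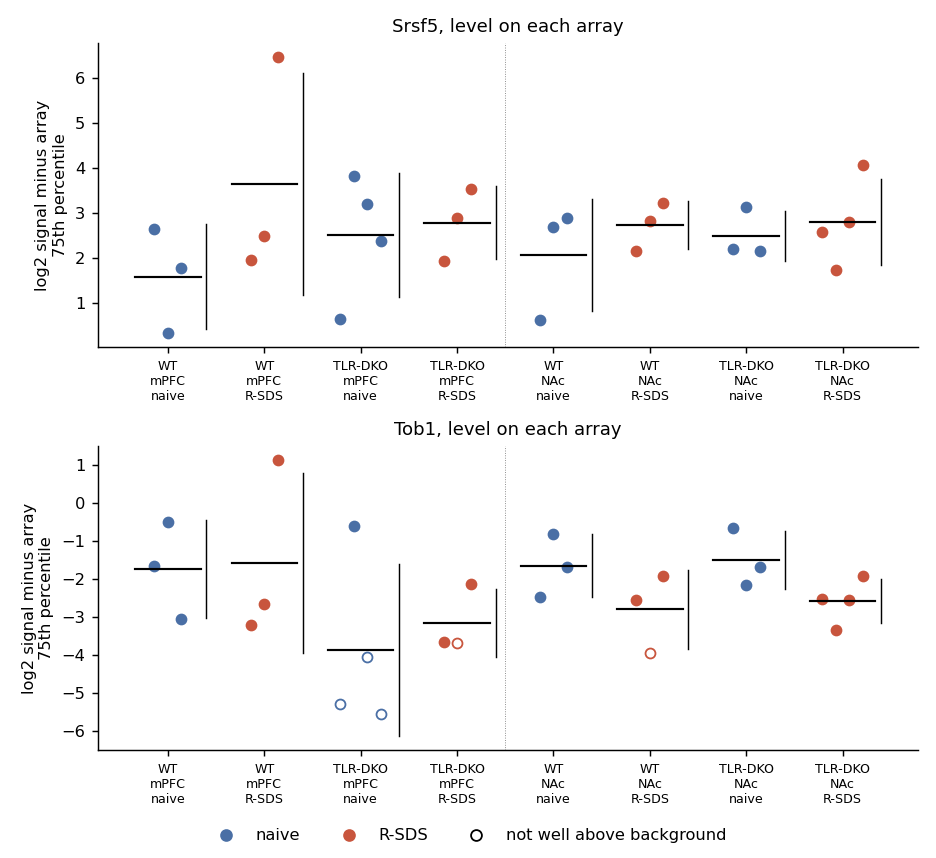
Levels of Srsf5 (top) and Tob1 (bottom) on each array (log2 signal minus the array's 75th percentile), with group means and SD as bars and open points where the probe was not well above background. In WT mPFC R-SDS 1 array reads 6.47 for Srsf5 and 1.15 for Tob1, apart from the other arrays of its group.

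Averaged over the combinations, Tob1 differed by -0.34 ± 0.54 (SE) with stress (adjusted p 0.98). The estimates were 0.17 ± 1.12 in WT mPFC and 0.72 ± 1.04 in TLR-DKO mPFC, against -1.15 ± 1.12 in WT NAc and -1.09 ± 1.04 in TLR-DKO NAc. The difference between regions, -1.56 ± 1.08, did not pass the test (adjusted p 1.00). Without the array that stands apart the WT mPFC value was -1.20 and the average -0.68. For Tob1, TLR-DKO minus WT was -0.84 ± 0.54 (adjusted p 0.70), NAc minus mPFC was 0.45 ± 0.54 (adjusted p 0.73), and the stress by genotype contrast was 0.31 ± 1.08 (adjusted p 0.99). Without the array that stands apart, Tob1 gave -0.50 for genotype, 0.79 for region, 0.99 for stress by genotype and -0.88 for stress by region. Without TLR-DKO mPFC naive replicate 1, its stress difference in TLR-DKO mPFC was 0.25 and stress by genotype 0.069.

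Across the 26 arrays, Cirbp had a Pearson r of 0.59 with Rbm3 and -0.56 with Noct, and Srsf5 of 0.44 with Tob1. Without the array that stands apart (n = 25) these were 0.68, -0.56 and 0.18, so the last rests on that array. The Rbm3 value is of its brightest probe, and its other probes were not correlated here. Cirbp and Noct were both chosen by their stress difference, lower in Cirbp and higher in Noct, which enters their r. The arrays share their scaling and their groups, so these values are descriptions of pattern. The named genes with the patterns most like Cirbp, among 13561 above background on at least 13 arrays, were Ndufb11 (r 0.72), Coro1a (0.72), Zmpste24 (0.71), Armc10 (0.69) and Pomp (0.69). For the brightest Rbm3 probe they were Ctr9 (0.71), Susd3 (0.70), Gm6787 (0.69), Uqcrq (0.68) and Bcl9l (0.64). Noct was most like Patl1 (0.72), whose average stress difference was 2.19, then Eif3j1 and 4933439C10Rik (both 0.62), Fgf13 (0.62) and Mphosph10 (0.61). For Srsf5 they were Gpat4 and Rnf19b (both 0.83), Tuba1c and Abcf2 (both 0.80) and Capn3 (0.77). Tob1 had Hsd3b7 and Itpkc (both 0.74), Cttnbp2nl (0.71), Fnta (0.70) and Mapkap1 (0.70). The same genes had r of 0.68 to 0.77 with Srsf5 and 0.61 to 0.68 with Tob1 without the array that stands apart.

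Other genes of these pathways were examined in the average stress difference, where the median of all genes was 0.043 on the log2 scale. Of 21 cold- and temperature-responsive RNA-binding proteins, all tested, 7 lay above 0 and 14 below, with a median of -0.20, and 0 passed the test in either direction. No p is read for Cirbp. Among the other genes, the smallest p after that of Rbm3 was that of Ybx1, a cold shock domain protein. Ybx1 differed by -0.71 ± 0.34 (SE, limma adjusted p 0.91). Its stress difference was between -1.10 and -1.02 in 3 combinations and 0.32 in TLR-DKO NAc. Of 20 heat shock chaperones and their regulators, 17 were tested, 13 of them above 0, with a median of 0.24 and 0 passing. Dnajb4, an Hsp40 co-chaperone, differed by 1.00 ± 0.34 (adjusted p 0.81), Fkbp4, an Hsp90 co-chaperone, by 1.03 ± 0.51, and Hsph1, an Hsp110 chaperone, by 1.04 ± 0.52 (both adjusted p 0.91). Fkbp4 differed by 0.66 without the array that stands apart. In WT NAc all 3 had estimates below 0, of -0.72, -0.29 and -0.059.

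Of 33 genes of deadenylation and its adaptors, 32 were tested; 13 lay above 0 and 19 below, with a median of -0.075, and 0 passed. No p is read for Noct. Among the other genes, the smallest p-values were those of Btg2 and Zfp36l1 (both limma adjusted p 0.54). Btg2, an antiproliferative relative of Tob1 that recruits deadenylases, differed by 0.85 ± 0.23 (SE). Zfp36l1, which binds AU-rich elements of mRNAs, differed by 0.61 ± 0.16. Btg2 means were higher after stress in all 4 combinations, for example 3.31 ± 0.33 (SD, n = 3) against 2.35 ± 0.24 (SD, n = 4) in TLR-DKO mPFC. Zfp36l1 differed by 1.09 in WT mPFC, 0.87 in WT NAc and 0.47 in TLR-DKO mPFC, and by -0.0074 in TLR-DKO NAc.

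Among 19 SR splicing factors and their kinases, 18 were tested, 11 above 0, with a median of 0.028 and 0 passing. Srsf7, an SR protein with a zinc knuckle, differed by 1.11 ± 0.25 (SE, adjusted p 0.35), and its 4 estimates were between 0.94 and 1.46. The WT mPFC means of Srsf7 were 1.09 ± 0.082 (SD, n = 3) on naive and 2.13 ± 0.51 (SD, n = 3) on R-SDS arrays. Srsf6 differed by 0.81 ± 0.29 (adjusted p 0.81) and Tra2a, an SR-like splicing regulator, by 0.41 ± 0.18 (adjusted p 0.91). Of 18 circadian clock genes, 13 were tested, 6 above 0 and 7 below, with a median of -0.072 and 0 passing. Nfil3, a repressor of clock output genes, differed by 1.30 ± 0.49 (adjusted p 0.87), Per1, a clock gene that is also induced acutely, by 0.85 ± 0.36 (adjusted p 0.89), and Cry2, a core clock repressor, by -1.54 ± 0.78 (adjusted p 0.91).

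**Figure D5:**
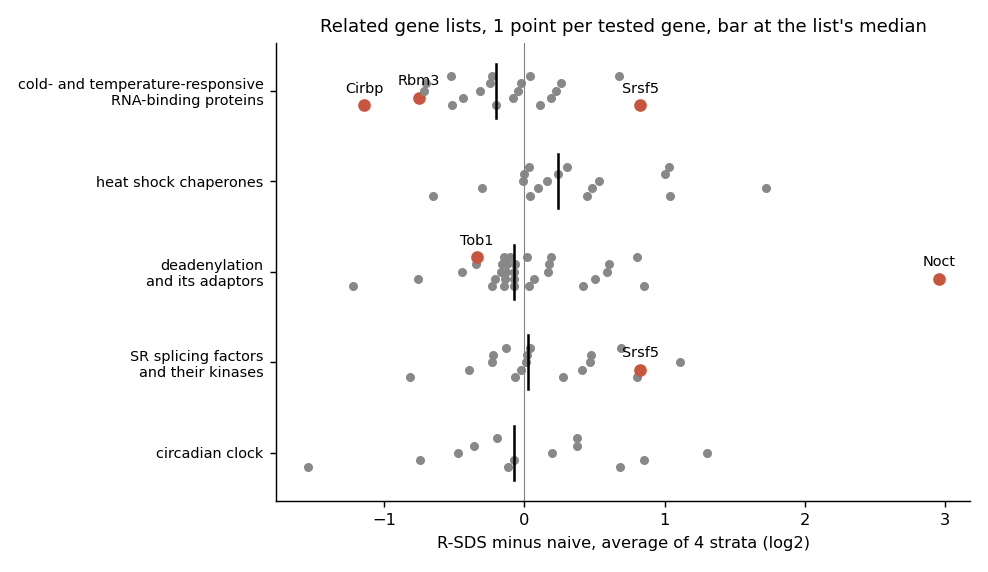
Average stress difference (R-SDS minus naive over 4 combinations, log2 scale) of each tested gene in 5 lists related to the described genes, with a bar at each list's median and the described genes in red. List medians lie between -0.20 and 0.24. Noct lies at 2.95, and was at 0.90 with a normexp correction. Cirbp and Noct were chosen by this difference, so their places here are a description.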

How the data were processed

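Microglial RNA of 26 pooled samples was amplified from 500 pg, labelled with Cy3 and hybridised to single-colour Agilent arrays, per the labels' protocols. The authors' scanner software, Agilent Feature Extraction 11.0.1.1, made the deposited spot intensity values, which are linear with the background subtracted, per the file headers. The deposited value table holds log2 values that match log2 of this signal minus about the 75th percentile of each array. Its column medians lay between -2.90 and -2.21, and the direction and scale were found by that match, not stated.

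Here log2 of the processed signal minus each array's 75th percentile was used. Control spots and outlier spots were left out, which removed 108 probes. The brightest probe stood for a gene, and a gene was kept if 3 arrays of any 1 group read it well above background. Probes were named through RefSeq (GRCm38.p6), with 28026 of 29796 RefSeq-style accessions matched; the headers give mm9 as the build, and no array coordinates were used. All 26 arrays were fitted as 8 group means with limma 3.58.1 in R 4.3.3 (lmFit, eBayes, two-sided), with Benjamini-Hochberg adjustment over 24735 genes and a threshold of 0.05. The script was tested on simulated data. The number of arrays limits the precision, and within groups the SD over arrays had a median of 0.76. Arrays lay on 4 slides scanned on 2 days. No slide held both regions, so regional differences in level cannot be told apart from differences between slides.

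Named genes were the 5 described genes with every probe and the 3 genes of smallest p in each of 5 related lists. Cirbp and Noct held a place in that ranking, and no p is read for them. For each described gene, the 5 named genes of highest correlation were also given. The genes and the lists were chosen with earlier results of these data known. Replicate numbers did not pair the samples: of 12 same-numbered pairs, 2 had a correlation of deviations over 0.1 (range -0.14 to 0.18). Alternatives covered background correction, normalization, filter, probes, variance, weights, slide, scan day and left-out arrays.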

Additional observations from a re-analysis of the deposited data

How the results depend on the processing

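No call changed for the 5 genes under any alternative run, since none passed the threshold in any tested contrast, and Cirbp and Noct kept the sign of their average stress difference. Several small estimates changed sign; the cause was not tested. With normexp, chosen after seeing the data, the average stress difference of Noct was 0.90, and stress by genotype was -0.014 for Noct, 0.023 for Rbm3 and -0.16 for Tob1. On scan day 2 alone, the average stress difference of Tob1 was 1.13, region gave 1.14 for Noct and 0.081 for Rbm3, genotype gave -0.38 for Srsf5, and stress by genotype gave 0.32 for Rbm3 and -1.29 for Tob1. On scan day 1 alone, genotype gave 0.0030 for Cirbp and -0.30 for Rbm3, region 0.18 for Srsf5, and stress by genotype -1.03 for Noct. With array weights the values were -0.48 (Noct, stress by genotype), -0.081 (Rbm3, genotype) and 0.18 (Srsf5, region); without both outlying arrays (replicate 1 of the naive TLR-DKO mPFC group, replicate 3 of the stressed WT mPFC group) they were -0.17, -0.046 and 0.089 for the same 3. Median centring gave 0.062 for the genotype difference of Cirbp, quantile normalization 0.090 for Noct by region and 0.33 for Rbm3 stress by genotype, and the percentile over always-detected probes 0.27 for the latter. The genotype difference of Rbm3 was -0.26 with its probes averaged, and that of Srsf5 -0.087 with scan day and -0.12 with slide as a block.

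Leaving out each array in turn gave genotype ranges of -0.15 to 0.038 (Cirbp), -0.016 to 0.21 (Rbm3) and -0.065 to 0.50 (Srsf5). Region ranged from -0.40 to 0.12 (Noct) and -0.32 to 0.24 (Srsf5). Stress by genotype ranged from -0.19 to 0.86 (Noct), -0.30 to 0.16 (Rbm3) and -0.10 to 0.99 (Tob1). With the replicate block, which the numbering gives no basis for, Cirbp stress by genotype in mPFC was -2.35 (limma adjusted p 0.70) and its average stress difference -1.14, and 2 genes were called in stress by region.

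Over the alternatives, the number of all genes called ranged from 0 to 10 for average stress (0 as reported), 0 to 2 for stress by region (1), 2 to 14 for genotype (5) and 0 to 447 for region (222). It was 0 or 1 for stress by genotype within mPFC or NAc. Signals near background limit Noct and Tob1: their levels there are not measured.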
